A study of Mus musculus with 18 samples.

Results

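The genes described here are 4 ligands of the tumour necrosis factor (TNF) superfamily, Tnf, Lta, Ltb and Tnfsf14, out of 19057 genes named on the array. All 8 probes that carry one of these symbols were taken, of 45281 probes: 2 for Tnf, 2 for Lta, 1 for Ltb and 3 for Tnfsf14. Of the 4 genes, 3 passed the filter on dim probes and were among the 8985 genes tested. Ltb did not pass. The genes were chosen by symbol, with measured values of these arrays known, among them the 4 h response of Tnf in wild-type cells, so the wild-type response is given as values with no test.

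Messenger RNA of cultured mouse mast cells was measured on 18 Illumina bead arrays, 3 in each of 6 groups. The cells were wild type (WT) or knockout (KO) for Dnmt3a, a DNA methyltransferase that sets new methylation marks, and both genotypes were measured untreated, after 4 h and after 24 h of IgE and antigen, the signal that cross-links the high-affinity IgE receptor. The labels add that the mice were female and give 5 weeks, without saying whether this is the age of the mice or of the culture. They do not say how Dnmt3a was deleted, in which cells, or whether a culture came from 1 mouse. Numbers in the labels are read as cultures, each with 1 array per condition. Slide 1 held WT culture 6 and KO culture 3, slide 2 held WT 8 and KO 4, and slide 3 held WT 9 and KO 6. The number 6 in both genotypes names different cultures. If the cultures are not of separate mice, the p-values measure only the spread between these samples.

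TNF ligands are trimeric type II membrane proteins or, for lymphotoxin alpha, secreted trimers, and they signal through receptors of the TNF receptor superfamily to NF-kB and to cell death pathways. Tnf encodes TNF, which mast cells store in granules and also make anew after IgE stimulation. Lta encodes lymphotoxin alpha, which binds the same receptors as TNF when secreted. Ltb encodes lymphotoxin beta, a membrane protein that forms mixed trimers with lymphotoxin alpha and then binds the lymphotoxin beta receptor. Tnfsf14 encodes LIGHT, a ligand of the lymphotoxin beta receptor and of HVEM (Tnfrsf14). Transcription of Tnf after receptor cross-linking is known to use NFAT, NF-kB, AP-1 and EGR factors.

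All 4 genes lie on chromosome 17 of the mouse genome, where Tnf, Lta and Ltb are neighbours and Tnfsf14 lies apart from them. The 250 bases before each start site are shown because the compared enzyme acts on cytosines in CpG dinucleotides, which are in capitals. The sequences are from RefSeq (GRCm38.p6) and run 5′ to 3′ on the gene's strand. They cover chr17:35202008-35202257 (minus strand) for Tnf, chr17:35205352-35205601 (minus) for Lta, chr17:35194257-35194506 (plus) for Ltb and chr17:57194182-57194431 (minus) for Tnfsf14.
Tnf: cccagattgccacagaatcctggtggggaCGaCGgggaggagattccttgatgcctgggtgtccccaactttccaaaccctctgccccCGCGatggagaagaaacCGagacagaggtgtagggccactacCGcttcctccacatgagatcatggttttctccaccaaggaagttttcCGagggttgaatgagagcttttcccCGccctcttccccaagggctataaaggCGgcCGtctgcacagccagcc
Lta: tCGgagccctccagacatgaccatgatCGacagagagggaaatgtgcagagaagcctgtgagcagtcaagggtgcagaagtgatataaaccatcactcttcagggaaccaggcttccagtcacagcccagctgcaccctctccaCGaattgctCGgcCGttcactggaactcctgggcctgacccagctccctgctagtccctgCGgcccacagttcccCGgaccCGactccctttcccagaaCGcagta
Ltb: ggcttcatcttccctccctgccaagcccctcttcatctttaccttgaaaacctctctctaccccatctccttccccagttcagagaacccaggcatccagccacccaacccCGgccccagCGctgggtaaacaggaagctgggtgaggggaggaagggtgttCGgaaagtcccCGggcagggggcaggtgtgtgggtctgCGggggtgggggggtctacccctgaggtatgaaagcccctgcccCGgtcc
Tnfsf14: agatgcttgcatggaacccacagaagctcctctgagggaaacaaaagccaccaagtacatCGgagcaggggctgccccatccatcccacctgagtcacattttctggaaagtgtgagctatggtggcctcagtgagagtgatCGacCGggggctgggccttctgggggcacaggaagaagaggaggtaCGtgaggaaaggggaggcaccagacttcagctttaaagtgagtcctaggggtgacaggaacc

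The Tnf window held 10 CpG dinucleotides, Lta 9, Ltb 6 and Tnfsf14 4, beside a median of 6 over the same window of 32851 RefSeq promoters. Methylation was not measured on these arrays. The NFAT core GGAAA, searched on both strands, occurred 3 times in the Tnf window, 2 times in Lta, 1 time in Ltb and 3 times in Tnfsf14, and 55.6% of all promoters had at least 1 match. The Tnf matches started 181, 77 and 54 bases before the start site, and all were on the other strand. The letters TATAA, searched on both strands, stood on the gene's strand 29 bases before the Tnf start and 167 bases before the Lta start. On either strand, 22.8% of promoters had a match. The AP-1 motif TGANTCA, searched on both strands, was found in the Tnfsf14 window alone, 160 bases before the start, and 6.75% of promoters had it. No match of 1 of these 3 motifs overlapped a match of another. A match is a description of the letters, and binding was not measured.

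The probes for Dnmt3a could not check the genotype labels, since 0 of 18 arrays had any of the 3 probes above background and their intensities were 83.1 to 150. Array medians were 93.4 to 159, background limits 107 to 222, and 28.7% to 33.8% of probes were above the limit. Of 13 mast cell markers on the array all 13 passed the filter, and their summed intensity was 123750 to 170920 in KO and 141320 to 180550 in WT cells at 4 h. Of 12 macrophage markers 2 passed, with sums of 1309 to 1569 in KO and 942 to 1355 in WT cells at 4 h. Of these, Adgre1 was 0.98 higher in KO cells on the log2 scale and Lyz2 0.44 higher, while Csf1r and Cd14 were above background on 1 array each. Of 10 T and NK cell markers only Nkg7 passed (sums of 759 to 1054 in KO, 759 to 875 in WT cells). Nkg7 was 0.67 higher in KO cells at 4 h on the log2 scale, and Cd3d, Cd3e and Cd3g were above background on 0 arrays. Of 5 B cell markers 0 passed (sums of 343 to 355 in KO, 344 to 359 in WT cells), as against 1 of 9 neutrophil markers (636 to 737 and 641 to 656) and 1 of 8 dendritic cell markers (706 to 823 and 762 to 867). Of 3 basophil markers all 3 passed (6429 to 6835 and 6387 to 8296), and the KO minus WT difference at 4 h was 1.12 for Prss34, 0.0074 for Mcpt8 and −0.22 for Cd200r3. Their part in the results below was not tested. In these bulk samples, fewer cells of a type and less RNA per cell cannot be told apart. Levels below are log2 intensities after background correction and quantile normalisation, differences are on the same scale, and each ± after a difference is limma's standard error. A threshold of 0.05 was set on limma's p, adjusted by the Benjamini-Hochberg method over all 8985 genes.

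Tnf was low in untreated mast cells of both genotypes, high at 4 h and between these at 24 h. In WT cells its levels were 6.61, 7.44 and 7.15 untreated (cultures 6, 8 and 9), 10.24, 8.59 and 8.69 at 4 h, and 7.98, 7.72 and 8.23 at 24 h. Each 4 h level was above each untreated and 24 h level, and culture 6 was the highest at 4 h. In KO cells the levels were 6.45, 7.44 and 6.74 untreated (cultures 3, 4 and 6), 11.30, 9.23 and 10.68 at 4 h, and 8.60, 8.12 and 7.98 at 24 h. Here too the 3 conditions did not overlap, with culture 4 the lowest at 4 h. The deposited intensity of the same probe was 98.4 to 281 in untreated KO cells and 1001 to 2085 at 4 h. In WT culture 9 it was 422 at 4 h and 470 at 24 h, the reverse of the normalised order. In all other cultures it was lower at 24 h than at 4 h.

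Between 4 h and untreated cells the Tnf difference was 2.10 ± 0.48 in WT cells, or 4.30-fold. In KO cells Tnf rose by 3.53 ± 0.48, or 11.5-fold (limma, adjusted p = 0.00136, n = 3 per group), with 1 of 3 untreated arrays above background, so that the size rests partly on signals below the limit. The rise was 4.85, 1.79 and 3.95 in KO cultures 3, 4 and 6, and the WT differences were 3.62, 1.15 and 1.54 in cultures 6, 8 and 9. Both genotypes had their largest 4 h difference on slide 1. Without KO culture 3 the adjusted p was 0.0750, and without KO culture 6 it was 0.0506.

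At 24 h Tnf was 1.36 ± 0.48 above untreated cells in KO cultures, which missed the threshold (limma, adjusted p = 0.217). The difference from 4 h to 24 h was −2.17 ± 0.48 (adjusted p = 0.0502), and with the culture as a replicate block it passed, at an adjusted p of 0.0316. In WT cells these values were 0.91 for 24 h against untreated and −1.19 for 24 h against 4 h. In the order of group means, from KO untreated (6.88 ± 0.51, SD, n = 3) and WT untreated (7.07 ± 0.42) through WT 24 h (7.98 ± 0.25), KO 24 h (8.23 ± 0.32) and WT 4 h (9.17 ± 0.92) to KO 4 h (10.40 ± 1.06), the arrays of the untreated pair overlapped, as did those of the 24 h pair, of KO 24 h and WT 4 h, and of the 4 h pair.

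**Figure D1:**
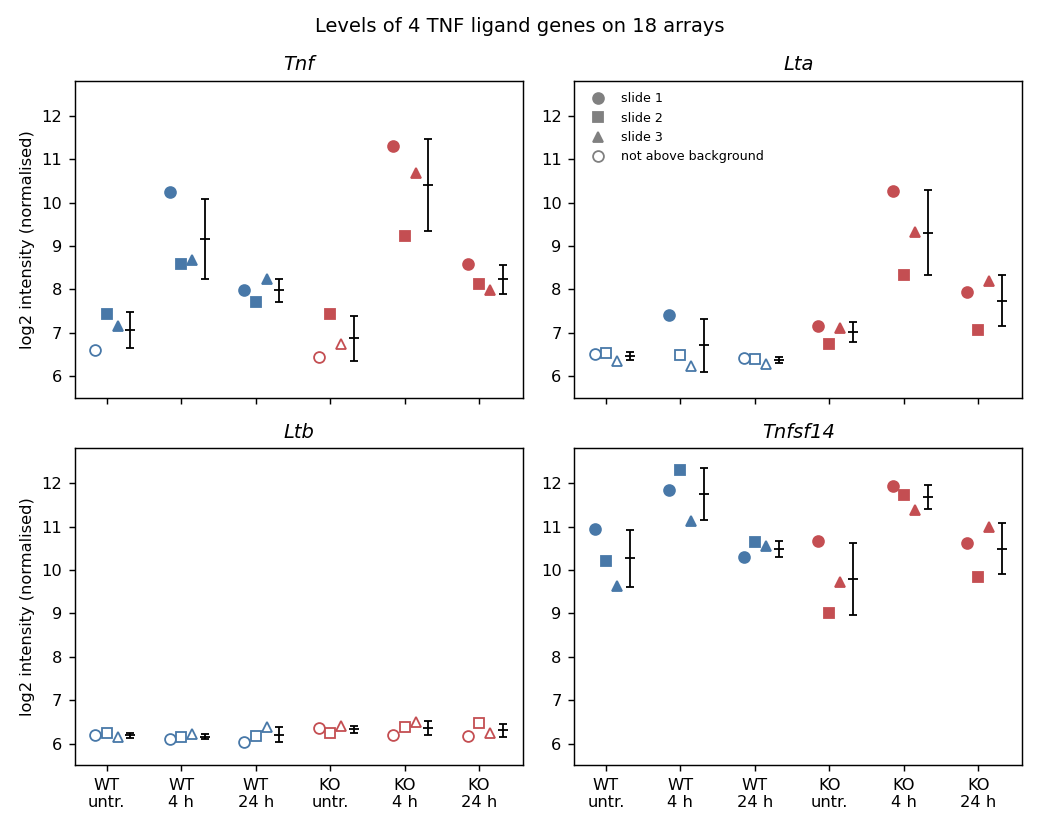
Log2 intensity of the tested probe of Tnf, Lta and Tnfsf14 and of the only Ltb probe on all 18 arrays, by genotype (WT blue, KO red) and condition. Symbols mark the slide, open symbols are arrays where the probe was not above background, and bars are the mean ± SD of 3 arrays. Lta was above background on 9 of 9 KO arrays and 1 of 9 WT arrays, and Ltb on 0 of 18.

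Lta was above background in KO cells in every condition and in WT cells on a single array. In WT cells its levels were 6.51, 6.54 and 6.36 untreated, 7.41, 6.49 and 6.25 at 4 h, and 6.43, 6.41 and 6.29 at 24 h. Only culture 6 at 4 h was above background. In KO cells they were 7.17, 6.75 and 7.12 untreated, 10.27, 8.33 and 9.33 at 4 h, and 7.94, 7.08 and 8.20 at 24 h. The KO levels lay above all WT levels within each condition, and the gap was widest at 4 h. Of the 10 arrays on which Lta was above background 9 were KO arrays. Lta thus passed the filter through the knockout group, and such a filter favours a genotype difference. Its deposited intensity was 115 to 179 in WT and 545 to 984 in KO cells at 4 h.

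Lta rose at 4 h in KO cells by 2.30 ± 0.40, or 4.91-fold (limma, adjusted p = 0.0119, n = 3 per group). The rise was 3.10, 1.58 and 2.21 in KO cultures 3, 4 and 6. In WT cultures 6, 8 and 9 the differences were 0.89, −0.05 and −0.11, and the last 2 lie between signals below the limit. The KO call was lost when only the 2 compared groups were fitted (adjusted p = 0.114) and without KO culture 3 (0.169), KO culture 6 (0.0857) or WT culture 8 (0.0534). At 24 h Lta was 0.73 ± 0.40 above untreated KO cells (adjusted p = 0.443). The difference from 4 h to 24 h, −1.57 ± 0.40, missed the threshold (adjusted p = 0.0719) and passed with the replicate block (0.0126).

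Tnfsf14 was above background on all 18 arrays, and its levels were highest at 4 h in both genotypes. In WT cells they were 10.95, 10.21 and 9.64 untreated, 11.84, 12.30 and 11.12 at 4 h, and 10.29, 10.64 and 10.55 at 24 h. In KO cells they were 10.66, 9.01 and 9.72 untreated, 11.94, 11.71 and 11.39 at 4 h, and 10.62, 9.85 and 11.00 at 24 h. The 4 h levels did not overlap the untreated levels in either genotype, while the 24 h levels did. The deposited intensity was 597 to 1452 in untreated WT cells and 2030 to 5743 at 4 h. On slide 3 it was higher at 24 h than at 4 h, unlike the normalised levels. It was 2030 at 4 h and 2093 at 24 h in WT culture 9, and 2830 and 3272 in KO culture 6. In all other cultures it was lower at 24 h than at 4 h.

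The WT difference at 4 h was 1.48 ± 0.42, or 2.79-fold, and 0.88, 2.09 and 1.48 in cultures 6, 8 and 9. In KO cells Tnfsf14 rose by 1.89 ± 0.42, or 3.69-fold (limma, adjusted p = 0.0472, n = 3 per group), and by 1.28, 2.71 and 1.67 in cultures 3, 4 and 6. On slide 1, where Tnf and Lta moved most, Tnfsf14 moved least in both genotypes. The call was lost with the authors' values or no background correction (adjusted p = 0.0527 in both), with no filter on dim probes (0.0894), with the compared groups alone (0.130) and without KO culture 3, 4 or 6 or WT culture 6 or 8. At 24 h the KO difference from untreated cells was 0.69 ± 0.42 (adjusted p = 0.495), and from 4 h to 24 h it was −1.19 ± 0.42 (adjusted p = 0.164).

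Ltb was not above background on any of 18 arrays, with deposited intensities of 95.5 to 176, or 70.6% to 89.2% of each array's limit. Its group means were 6.17 to 6.36, and no fold is given.

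All 3 tested members rose at 4 h in KO cells, where 0.812% of all tested genes passed the threshold and 0.634% rose. The count was 0 without KO culture 3 or KO culture 6, 1 without WT culture 8, and 1 with the compared groups alone. At 24 h against untreated KO cells 0 of 3 passed (background 0.245%), and 0 of 3 passed between 24 h and 4 h (background 0.69%), or 2 with the replicate block, where 6.39% of all genes passed. Among the 8985 genes ordered by their 4 h difference in KO cells, Tnf was 9th from the highest, Lta 40th and Tnfsf14 62nd. In the same order for WT cells Tnf was 26th and Tnfsf14 82nd, while Lta was mostly below background there.

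**Figure D2:**
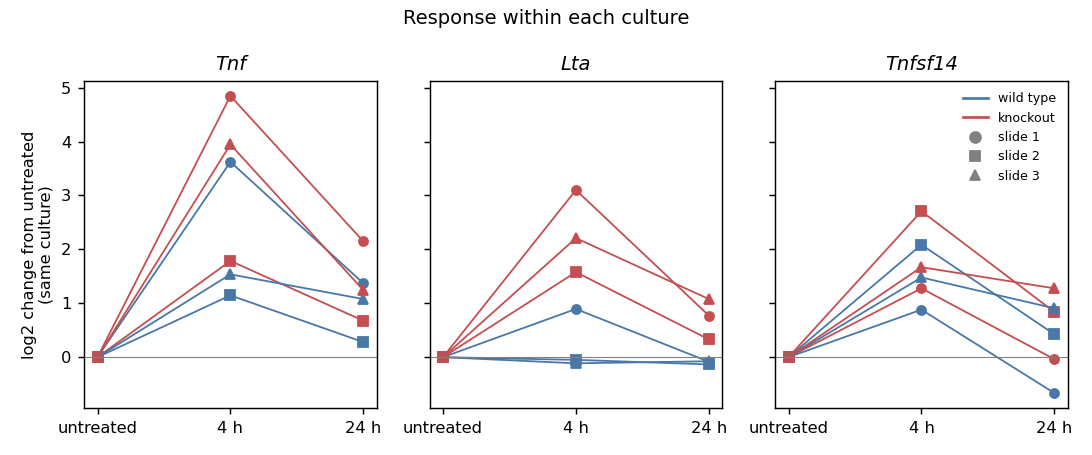
Log2 difference from the untreated array of the same culture at 4 h and 24 h for Tnf, Lta and Tnfsf14, 1 line per culture (WT blue, KO red), with symbols for the slide. Every line for Tnf and Tnfsf14 is above 0 at 4 h, and for Lta the 3 KO lines reach 1.58 to 3.10 while the WT lines reach −0.11 to 0.89.

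The question of the genotype comparison is whether cells without Dnmt3a hold more of these transcripts. Lta was higher in KO than in WT cells at 4 h by 2.59 ± 0.40, or 6.04-fold. Only 1 of 3 WT arrays was above background, so that the size rests mostly on WT signals below the limit. Lta entered the tests through its KO arrays, and the genotype values are therefore given as a description. With no filter on dim probes, where entry does not depend on the KO arrays, the adjusted p was 0.0181 (limma, n = 3 per group). With the filter it was 0.00624. The difference was 2.86, 1.84 and 3.08 on slides 1, 2 and 3. Of all tested genes 0.189% passed in this comparison, and Tnf and Tnfsf14 did not. The call with the filter was lost with the 2 compared groups alone (adjusted p = 0.545) and without WT culture 8 (0.147), WT culture 9 (0.104) or KO culture 6 (0.0619).

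In untreated cells the Lta difference was 0.54 ± 0.40 (limma, adjusted p = 0.995) and at 24 h it was 1.37 ± 0.40 (adjusted p = 0.474), and neither passed. With 0 of 3 WT arrays above background in both conditions, the KO mean was at least 1.24-fold higher untreated and at least 2.05-fold higher at 24 h. "At least" sets the KO mean against the lowest signal above background on each WT array. Untreated KO culture 4 (6.75) did not reach that signal on the array of WT culture 8 (6.79). On the 3 slides the difference was 0.65, 0.21 and 0.76 untreated and 1.51, 0.67 and 1.91 at 24 h, all against WT signals below the limit. The second Lta probe was below background on all these arrays. Its means were 6.09 in KO and 6.10 in WT cells untreated, and 6.22 and 6.00 at 24 h.

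Tnf levels of the genotypes overlapped in all 3 conditions. The KO minus WT difference was −0.19 ± 0.48 untreated (limma, adjusted p = 1.0, 95% interval −1.21 to 0.82), 1.23 ± 0.48 at 4 h (0.864, interval 0.21 to 2.25) and 0.25 ± 0.48 at 24 h (0.9995, interval −0.76 to 1.27). At 4 h it was 1.06, 0.64 and 1.99 on slides 1, 2 and 3, and with 1 culture left out it ran from 0.78 (without KO culture 3) to 1.82 (without KO culture 4). For Tnfsf14 the differences were −0.47 ± 0.42 untreated (interval −1.36 to 0.41), −0.07 ± 0.42 at 4 h (interval −0.96 to 0.81) and −0.00 ± 0.42 at 24 h (interval −0.89 to 0.88), with adjusted p of 0.995, 0.996 and 0.9995. The slides disagreed in sign for Tnfsf14 in each condition. In untreated cells 0 of 3 members passed (background 0.267%), as at 24 h (background 0.278%).

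The difference of the responses was tested on its own. At 4 h the KO response minus the WT response was 2.05 ± 0.56 for Lta (95% interval 0.86 to 3.24), 1.42 ± 0.68 for Tnf (interval −0.01 to 2.86) and 0.40 ± 0.59 for Tnfsf14 (interval −0.85 to 1.65). The WT part of the Lta value lies between signals of which 5 of 6 were below background. With 1 culture left out the Tnf value ran from 0.76 (without KO culture 3) to 2.29 (without KO culture 4), and it was 0.95 without WT culture 8 and 2.19 without WT culture 6. Unadjusted p was 0.00214 for Lta and 0.0521 for Tnf in limma, and the adjusted p was 0.9999 for all 3. With the replicate block the adjusted p for Lta was 0.459. No gene passed in limma for the 4 h or the 24 h response (background 0%), and 95 and 160 genes had an unadjusted p under 0.05. At 24 h the values were 0.82 ± 0.56 for Lta, 0.45 ± 0.68 for Tnf and 0.47 ± 0.59 for Tnfsf14 (adjusted p = 0.9997 for all 3).

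**Figure D3:**
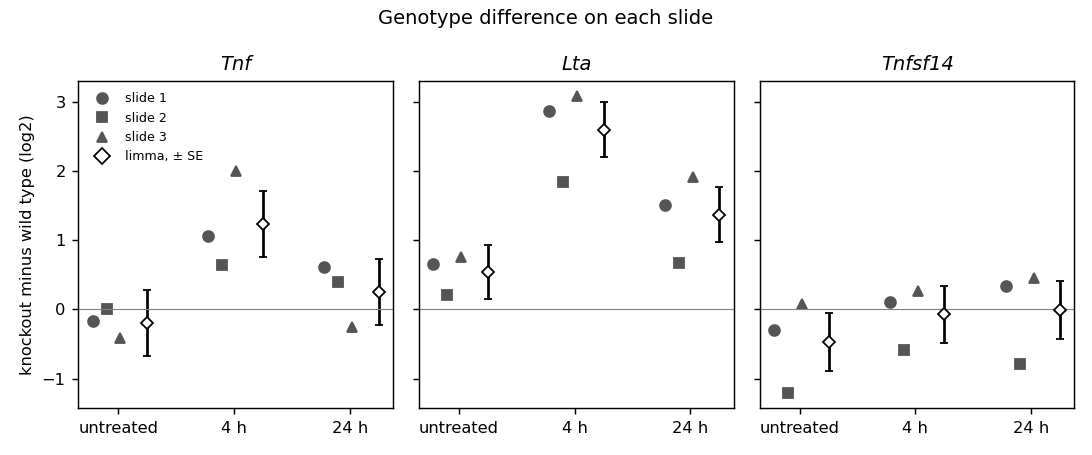
KO minus WT difference in log2 intensity on each slide (filled symbols, 1 KO and 1 WT culture per slide) and from limma with its standard error (open diamonds) for Tnf, Lta and Tnfsf14. The Lta difference at 4 h runs from 1.84 to 3.08 over the slides, with 1 of 3 WT arrays above background, and Tnfsf14 scatters around 0.

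Probes of 1 gene could be set beside each other. The second Tnf probe (ILMN_2467245) followed the first (ILMN_2899863) with a Pearson r of 0.99 over 18 arrays, and its 4 h difference was 2.19 ± 0.52 in WT and 3.44 ± 0.52 in KO cells. The 3 Tnfsf14 probes gave 4 h differences of 1.48 to 1.71 in WT and of 1.77 to 2.33 in KO cells. Adjusted over all 16669 kept probes, the KO rise passed in limma for 1 of them (ILMN_2851575, adjusted p = 0.0118), while ILMN_2851576 had 0.0522 and ILMN_1223954 0.0911. Over the 14073 kept probes of 1 gene symbol, ILMN_2851576 passed (limma, adjusted p = 0.0471). The second Lta probe (ILMN_1229804) was above background on 2 arrays, KO cultures 3 and 6 at 4 h, and was not tested. Its r with the tested Lta probe (ILMN_2780247) was 0.90 over the 18 arrays, which share the slides and groups.

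**Figure D4:**
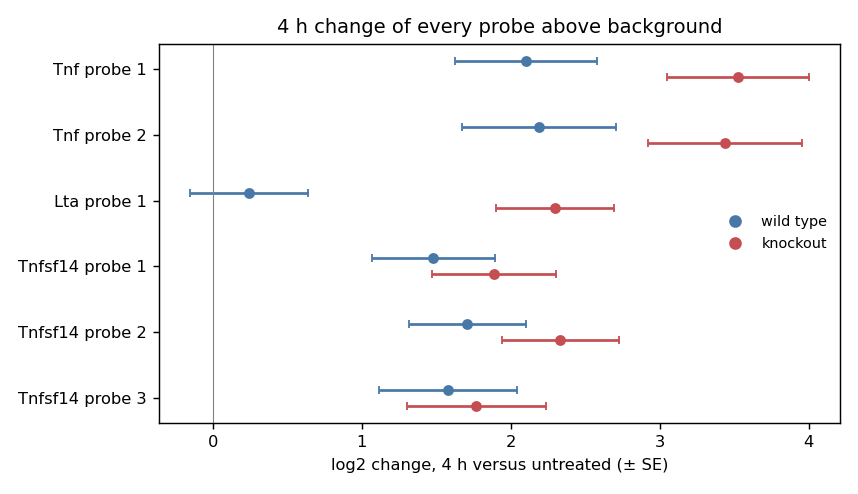
Log2 difference at 4 h from untreated cells for the 6 member probes above background on at least 3 arrays, in WT (blue) and KO (red) cells, with limma's standard error. Both Tnf probes are at 2.10 to 2.19 in WT and 3.44 to 3.53 in KO cells, and the Lta probe is at 0.24 and 2.30.

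Over the 18 arrays Lta followed Tnf with a Pearson r of 0.72 and Tnfsf14 with 0.66, which made them the 162nd and 340th of the tested genes in likeness to Tnf, counting Tnf as the first. These correlations take in the group differences and share the arrays. The 10 genes most like Tnf were Efs (r = 0.90), Egr3 (0.90), Csf2 (0.90), Il13 (0.89), Sema7a (0.89), Nfkbid (0.87), Hivep3 (0.87), Plk3 (0.86), Slc30a3 (0.85) and Lbh (0.85). Csf2 and Il13 encode the cytokines GM-CSF and IL-13, Egr3 is an early zinc finger factor, and Nfkbid encodes the nuclear IkB protein IkBNS.

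Besides the members, tested genes near Tnf and Tnfsf14 on chromosome 17 did not pass in KO cells at 4 h or between genotypes. Of the 8 gene entries on either side of Tnf in the RefSeq gene table, Bag6, Prrc2a, Lst1, Nfkbil1, Atp6v1g2 and Ddx39b were tested besides Lta. Their 4 h differences in KO cells ran from −0.64 for Lst1 to 0.19 for Prrc2a, and their KO minus WT differences at 4 h from −0.35 for Atp6v1g2 to 0.31 for Lst1. Around Tnfsf14, Dennd1c, Tnfsf9, Trip10, Gpr108, Vav1 and Adgre1 were tested, and the 4 h differences in KO cells ran from −0.97 for Dennd1c to 0.01 for Trip10. The KO minus WT differences at 4 h ran from −0.44 for Dennd1c to 0.98 for Adgre1. For Adgre1 this difference was 1.09 untreated and 1.15 at 24 h.

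The receptors of the 4 ligands were not measurable here. Tnfrsf1a and Tnfrsf1b (the TNF receptors), Ltbr and Tnfrsf14 each had at least 1 probe, and 0 of 4 passed the filter. Tnfrsf1b was above background on 2 of 18 arrays and the other receptors on 0. Of 133 other genes of the TNF system in the lists, 94 were tested.

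At 4 h 6 of these 94 genes (6.38%) rose and 0 fell in WT cells, where 1.83% of all genes passed the threshold and 0.89% rose. In KO cells 9 (9.57%) rose and 0 fell, where 0.812% of all genes passed and 0.634% rose. With the replicate block 16 and 19 passed, where 8.56% and 4.62% of all genes did. Without 1 culture the WT count was 0 (WT 8), 1 (WT 6) or 3 (KO 4), and the KO count was 3 (KO 3 or KO 4) or 5 (KO 6 or WT 8). The lists were drawn up with earlier results of these data known, so the counts here and below are a description. Cd27 and Relb are counted in both genotypes and were above background on stimulated arrays alone. Among 5 tested ligands of the superfamily 0 passed in either genotype. Their median 4 h difference was 0.74 in WT and 1.09 in KO cells, beside −0.04 and −0.02 over all genes. Tnfsf10 (TRAIL) differed by 1.37 ± 0.45 in WT cells and by 1.14 ± 0.45 in KO cells (2 of 3 untreated KO arrays above background). The ligand Fasl was not above background on any untreated array. The ligand Tnfsf4 was above background on 0 of 3 untreated WT arrays and 2 of 3 untreated KO arrays. Tnfsf4 (OX40 ligand) was at least 1.80-fold higher at 4 h in WT cells, and Fasl, above background on 2 of 3 arrays at 4 h, was at least 1.80-fold higher in KO cells. None passed the threshold, and the medians rest partly on these signals below the limit.

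Of 12 other TNF superfamily receptors, Cd27, the costimulatory receptor for CD70, rose in both genotypes. Its untreated level was not above background in either genotype. Cd27 thus passed the filter through stimulated arrays alone. Such a filter favours a rise, so the values are given as a description. Cd27 was at least 2.36-fold higher at 4 h in WT cells (limma, adjusted p = 0.0491), with 2 of 3 of these arrays above background. In KO cells it was at least 6.73-fold higher (limma, adjusted p = 0.00283). Its mean level was 7.94 ± 1.25 (SD, n = 3) in WT and 9.49 ± 0.37 in KO cells at 4 h, a difference that missed the threshold (1.55 ± 0.44, adjusted p = 0.404). The other 11 receptors did not pass, and the list's median difference was 0.18 in both genotypes.

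Of 18 tested NF-kB feedback and target genes, 3 rose in WT cells and 5 in KO cells at 4 h, with medians of 0.53 and 0.67. Over all tested genes 0.89% rose in WT and 0.634% in KO cells. Nfkbid rose by 1.72 ± 0.33 in WT and by 2.08 ± 0.33 in KO cells. Nfkbib, an inhibitor that holds NF-kB in the cytoplasm, rose by 0.65 ± 0.15 and 0.77 ± 0.15. Relb, an NF-kB subunit of the noncanonical pathway, was at least 1.63-fold higher in WT and at least 1.38-fold higher in KO cells. Relb was above background at 4 h alone, on 3 of 3 arrays of each genotype. It thus passed the filter through these arrays, and such a filter favours a rise at 4 h. The subunit genes Nfkb2 (1.05 ± 0.23) and Rel (1.25 ± 0.23, 1 of 3 untreated arrays above background) passed in KO cells, and whether their responses differ by genotype gave an adjusted p of 0.9999 for both in limma.

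Of 18 tested genes linked to Tnf transcription, 2 rose in WT and 3 in KO cells, with medians of 0.37 and 0.59. The EGR factors Egr2 and Egr3 were called in both genotypes, and the KO count adds Rcan1, which is not a transcription factor. The share of all tested genes that rose was 0.89% in WT and 0.634% in KO cells. Egr2 rose by 3.84 ± 0.63 in WT and 3.87 ± 0.63 in KO cells, and Egr3 by 2.83 ± 0.54 and 4.21 ± 0.54. Rcan1, a calcineurin regulator that NFAT is known to induce, rose in KO cells by 1.43 ± 0.15 (limma, adjusted p = 0.000300). Its KO minus WT difference at 4 h was 0.73 ± 0.15 (adjusted p = 0.0571), and the difference of the responses was 1.09 ± 0.21 (adjusted p = 0.393).

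Genes that act on TNF after transcription did not pass at 4 h. Among 6 genes for shedding of TNF from the membrane the median was 0.15 in WT and 0.38 in KO cells. The largest differences were 0.62 ± 0.22 in WT cells for Rhbdf1, an inactive rhomboid protein that carries the TNF-converting enzyme to the surface, and 0.69 ± 0.48 in KO cells for Timp3, an inhibitor of that enzyme. Among 12 genes that control Tnf mRNA the medians were 0.06 and 0.13. The largest differences were 0.62 ± 0.17 for Tial1, which encodes a protein that binds AU-rich mRNA, in WT cells and 0.66 ± 0.34 for the kinase gene Map3k8 in KO cells. Among 23 genes of TNF receptor signalling the medians were −0.05 and −0.04. The largest differences were −0.71 ± 0.26 for Fadd, the adaptor that recruits caspase-8, in WT cells and 1.19 ± 0.58 for the adaptor gene Traf1 in KO cells.

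From 4 h to 24 h in KO cells 7 of the 94 genes fell and 0 rose, while 0.434% of all genes fell. They were Cd27 (−2.15 ± 0.44), Nfkbid (−1.97 ± 0.33), Rcan1 (−1.37 ± 0.15), Rhbdf1 (−1.18 ± 0.22), Rel (−1.06 ± 0.23), Spi1 (−0.95 ± 0.21) and Nfkbib (−0.77 ± 0.15). In WT cells 11 fell and 2 rose, while 5.46% of all genes passed, 2.4% fell and 3.06% rose. The 2 that rose were Casp8 and Mlkl of the cell death pathways, a count near the share of all genes. Between the genotypes 0 of the 94 genes passed in any condition, in limma, and 0 of the response differences passed.

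**Figure D5:**
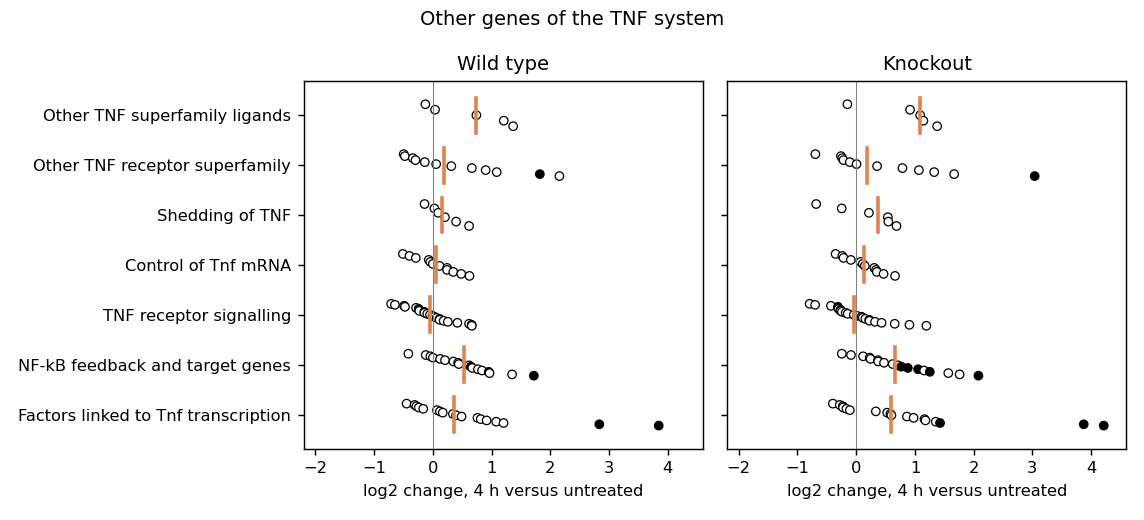
Log2 difference at 4 h from untreated cells for the 94 tested genes of the TNF system by list, in WT (left) and KO (right) cells. Filled points passed the threshold (6 in WT, 9 in KO cells), open points did not, and orange bars are list medians, from −0.05 to 0.74 in WT and −0.04 to 1.09 in KO cells.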

How the data were processed

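Total RNA of cultured mast cells was measured on 18 bead arrays. Per the labels' protocols, an Ambion kit was used to make biotin cRNA. The table deposited by the authors holds each probe's intensity on a linear scale. Their second deposited table holds log2 values, and it stayed within 0.000556 of the first table after quantile normalisation and log2. The scanner software is not given in the sources.

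Intensities were corrected by normexp (offset 50), quantile normalised and log2 transformed, with limma 3.58.1 in R 4.3.3. Background was set from 1504 probes of olfactory and vomeronasal receptors. A probe counted as above it where a share of 0.01 of them or less were as bright. It was kept if this held on 3 or more arrays, as for 16669 of 45281 probes. A gene was represented by its brightest kept probe on average, with symbols updated through Entrez identifiers (GRCm38.p6 table). The limma fit held all 18 arrays, with a mean for each of 6 groups, eBayes and no block. Tests were two-sided, adjusted by Benjamini-Hochberg over 8985 genes in each of 11 comparisons. The members, lists and rules were chosen with earlier results of these data known. The text names all members and, from each list, genes past the threshold or those with the largest difference.

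The labels' culture numbers pair the arrays over time: deviations from group means correlated above 0.1 in all 18 pairs of 1 culture (0.134 to 0.625, median 0.361). Arrays of 1 slide but the other genotype had a median of 0.328 (22 of 27 pairs above 0.1), so culture and slide cannot be told apart. The highest correlation of whole arrays was 0.985, so no 2 arrays are copies. The number of arrays limits the precision. The fit was tested on simulated data. Alternatives covered background correction, normalisation, the filter, the probe for a gene, blocks, weights, the groups in the fit and leaving out a culture.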

Additional observations from a re-analysis of the deposited data

Results flagged for a closer look

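After normalisation the 24 h values of Lta had opposite signs in the genotypes. Every KO culture had a higher level at 24 h than untreated (0.77, 0.33 and 1.08 on the log2 scale) and every WT culture a lower one (−0.09, −0.13 and −0.08), and the mean responses differed by 0.82. All 6 WT arrays behind these values were below background, and the deposited WT intensities were 1.08, 1.11 and 1.41 times the untreated ones, so the WT values have no settled direction. The test of the difference itself did not pass (limma, adjusted p = 0.9997).

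A second Lta probe, left out of the tests by the filter on dim probes, was above background on 2 arrays, those of KO cultures 3 and 6 at 4 h. Its levels there were 8.00 and 7.18, and 6.47 in KO culture 4, which was not above background. The WT levels at 4 h were 6.18, 6.12 and 5.95, and the untreated KO levels 6.15, 5.89 and 6.22, all below background.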

How the results depend on the processing

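Of 399 recomputed log2 differences with a test, 358 kept their direction and side of the threshold, 19 fell short of it, 14 newly passed and 8 changed sign. The causes were not tested. Sign changes: the difference of Tnfsf14 between genotypes at 24 h was 0.018 with cyclic loess and ran from −0.26 to 0.32 with 1 culture left out, and with 1 culture left out it ran from −0.39 to 0.20 at 4 h, from −0.0089 to 0.71 for the 4 h response difference, and from −0.48 to 0.021 for Tnf in untreated cells. None of these passed the threshold in any setting.

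In KO cells at 4 h, the Tnfsf14 rise fell short with no background correction and the authors' values (1.83 in both) and with no filter (1.89). With the compared groups alone the Tnfsf14 (1.89) and Lta (2.30) rises fell short, and 1 member passed. With 1 culture left out the KO 4 h rise was 2.87 to 4.40 for Tnf, 1.89 to 2.66 for Lta and 1.47 to 2.19 for Tnfsf14, and 0 to 3 members passed. From 4 h to 24 h in KO cells, Tnf newly passed with cyclic loess (−2.25) and with the 14073 kept probes of 1 gene symbol (−2.17), where 1 member passed. Over all 16669 kept probes, named or not, Tnf missed the threshold (limma, adjusted p = 0.0511). Both Tnf (−2.17) and Lta (−1.57) passed with the slide as a block, the replicate block or the culture as a random block, 2 members each. With array weights all 3 passed (−1.65 for Tnf, −1.39 for Lta, −1.51 for Tnfsf14). With 1 culture left out Tnf ran from −2.70 to −1.90, and 0 or 1 member passed. The replicate block changed no other call of a member, and it could not be fitted for genotype differences within a condition, which it absorbs.

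The Lta genotype difference at 4 h fell short with the compared groups alone (2.59, 0 members) and was 2.11 to 3.08 with 1 culture left out, where 0 or 1 member passed. At 24 h it newly passed with array weights (1.04, 1 member) and was 1.13 to 1.70 with 1 culture left out, passing without KO culture 4, with 0 or 1 member passing. The Lta difference at 24 h in WT cells, all below background, was −0.065 with no background correction and the authors' values, −0.066 with median scaling and −0.31 with cyclic loess. Of the 94 other genes, the 4 h count in WT and KO cells was 14 and 21 with the slide as a block, 16 and 19 with the replicate block, 15 and 20 with a random block, 0 and 5 with the compared groups alone, 28 and 27 with array weights, and 0 to 6 and 3 to 9 with 1 culture left out. The share of all genes that passed moved too: it was 9.72% and 5.55%, 8.56% and 4.62%, 9.15% and 5.64%, 0.0556% and 0.479%, and 17.3% and 6.52% in the same order, and without WT culture 8 it was 0.0111% and 0.278%. Between genotypes at 4 h 1 of them passed in place of 0 with no background correction, cyclic loess, the authors' values, no filter, the slide as a block or array weights. Few arrays and signals near background, as for Lta in WT cells, limit what can be resolved.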
